A study of Rattus norvegicus with 35 samples.

Results

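Imprinted genes are transcribed mainly or only from the copy inherited from 1 parent, and many of them act on growth before birth. Dlk1, Peg3, Plagl1 and Grb10 belong to this class, whereas the Hmga proteins, which bend AT-rich DNA, and the Igf2bp proteins, which bind Igf2 and other mRNAs, are not imprinted but are made mostly in embryos and tumours. The let-7 microRNAs, which accumulate as tissues mature and are held back by Lin28, are known to target Hmga2 and the Igf2bp mRNAs. The olfactory epithelium lines the back of the nasal cavity and renews its sensory neurons from basal cells throughout life.

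The set of fetal growth and imprinted genes held 10 listed genes: Dlk1, Mest, Peg3, Plagl1, H19, Hmga1, Hmga2, Igf2bp1, Igf2bp3 and Grb10. Members were the probes whose gene name in the array files, or whose bracketed symbol in the probe's description, was one of these symbols, and this gave 8 probes of 7 genes among 41012 probes with 35561 gene names. The files named no probe Grb10, but RefSeq gives the name RGD1566234, carried by 3 probes, as an older name of Grb10, and these are described beside the others and kept out of the counts. Mest and H19 were not analysed here. Matching probes by name used no measured level, but the 10 genes were chosen with earlier results of these data known.

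RNA of the olfactory epithelium of 27 Brown Norway rats was hybridised to 35 single-colour Agilent arrays. Newborn rats were 19 pups aged 3 to 5 days, of unrecorded sex, with 1 array each: 4 pups of litter L1 and 5 pups each of L2, L3 and L4. Adult rats were 4 males aged 9 weeks and old rats were 4 males aged 22 months, and each of these 8 rats gave 2 arrays, one per nostril, which were averaged so that the rat was the replicate. All rats were untreated and of 1 inbred strain, and the pups of a litter share a mother, so that they are not fully independent animals.

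A level is the log2 of a probe's background-subtracted signal over the median signal of its array, so that 0 is the array median, and it was held at or above -6.64 (a ratio of 0.01). A probe was above background on an array where the scanner software marked its spot as uniform, unsaturated, significantly positive and well above the background. A difference was called at an adjusted p under 0.01 in limma, adjusted over all probes. Levels of different probes cannot be ranked against each other, so each gene is compared only with itself across rats. Between 24484 and 28361 probes were above background on an array, the ranges of the 3 ages overlapped, and no group stood apart in this respect. All adult arrays were scanned on 2 days on which no other rats were scanned, with an earlier release of the software, so that adult age and scan day cannot be told apart; old rats shared a scan day with L1 only. In these bulk samples fewer cells of a type and less RNA per cell cannot be told apart.

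The probes of the coding families are shown first, because the Hmga and Igf2bp genes each have close relatives. All are 60-base oligonucleotides of the array design, written 5′ to 3′, with positions in build rn3. The Dlk1 probe (chr6:134034500-134034559, plus strand) has in capitals 3 cysteine codons, cysteine being the residue that folds the EGF-like repeats of this protein. The Hmga2 probe (chr7:59760998-59771268, minus strand) has in capitals 12 bases that encode the core of an AT-hook, the DNA-binding motif of the family. Its position covers 10271 bases, so the probe joins exons across an intron, as do the Hmga1 probe (chr20:5770712-5771537, plus strand, 826 bases) and the second Igf2bp3 probe (chr4:77489869-77493270, minus strand, 3402 bases). The first Igf2bp3 probe (chr4:77490274-77490333) and the Igf2bp1 probe (chr10:84688566-84688625) lie on the minus strand within single blocks.
Dlk1: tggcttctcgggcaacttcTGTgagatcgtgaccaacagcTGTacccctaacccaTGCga
Hmga1: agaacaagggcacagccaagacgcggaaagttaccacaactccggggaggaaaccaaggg
Hmga2: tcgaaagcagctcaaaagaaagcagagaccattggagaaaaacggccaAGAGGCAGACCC
Igf2bp1: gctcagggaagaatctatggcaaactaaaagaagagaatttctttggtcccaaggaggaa
Igf2bp3 probe 1: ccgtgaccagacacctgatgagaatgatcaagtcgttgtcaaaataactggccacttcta
Igf2bp3 probe 2: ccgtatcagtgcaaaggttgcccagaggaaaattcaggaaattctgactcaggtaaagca
The longest run of bases that the Igf2bp1 probe shared with either Igf2bp3 probe was 6. The Hmga1 and Hmga2 probes shared at most 7, and the 2 probes of Igf2bp3 itself at most 5. Such runs compare only the oligonucleotides. The match of a probe to the transcript of the related gene was not searched, so cross-hybridisation was not tested. The Plagl1 probe lies at chr1:7921813-7921873 (plus strand) and the Peg3 probe at chr1:65603423-65603482 (plus strand). The 3 Grb10 probes lie on the minus strand at chr14:92834729-92834788, chr14:92872824-92872883 and chr14:92836186-92836245.

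Across the set, the levels of Dlk1, Igf2bp3, Hmga1 and Peg3 in newborn rats exceeded those in adult rats, and those of the same 4 genes and Plagl1 exceeded those in old rats. Hmga2 and Igf2bp1 passed the test in neither comparison. Of the 8 probes, 5 were called higher in newborn than in adult rats, against 27.0% of all probes called in that direction, and 3 of them also differed at least 5-fold in the fit, against 2.27%. Adult rats were below background for all 3, and the nominal bound on the fold, explained under Dlk1 below, was over 5 for 1 of them. Against old rats 6 of 8 probes were called higher in newborn rats (20.6% of all probes) and 4 at least 5-fold in the fit (2.97%), again with old rats below background for all 4 and a bound over 5 for 1. All 8 fitted differences were above 0 in both comparisons. The median log2 difference over the 8 probes was 1.31 against adult and 2.27 against old rats, where the median over all probes was 0.10 and -0.04. The newborn rats are the same in both comparisons, so these 2 sets of values are not independent. Because the set was chosen with earlier results of these data known, the shares beside all probes are descriptions and no test.

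**Figure D1:**
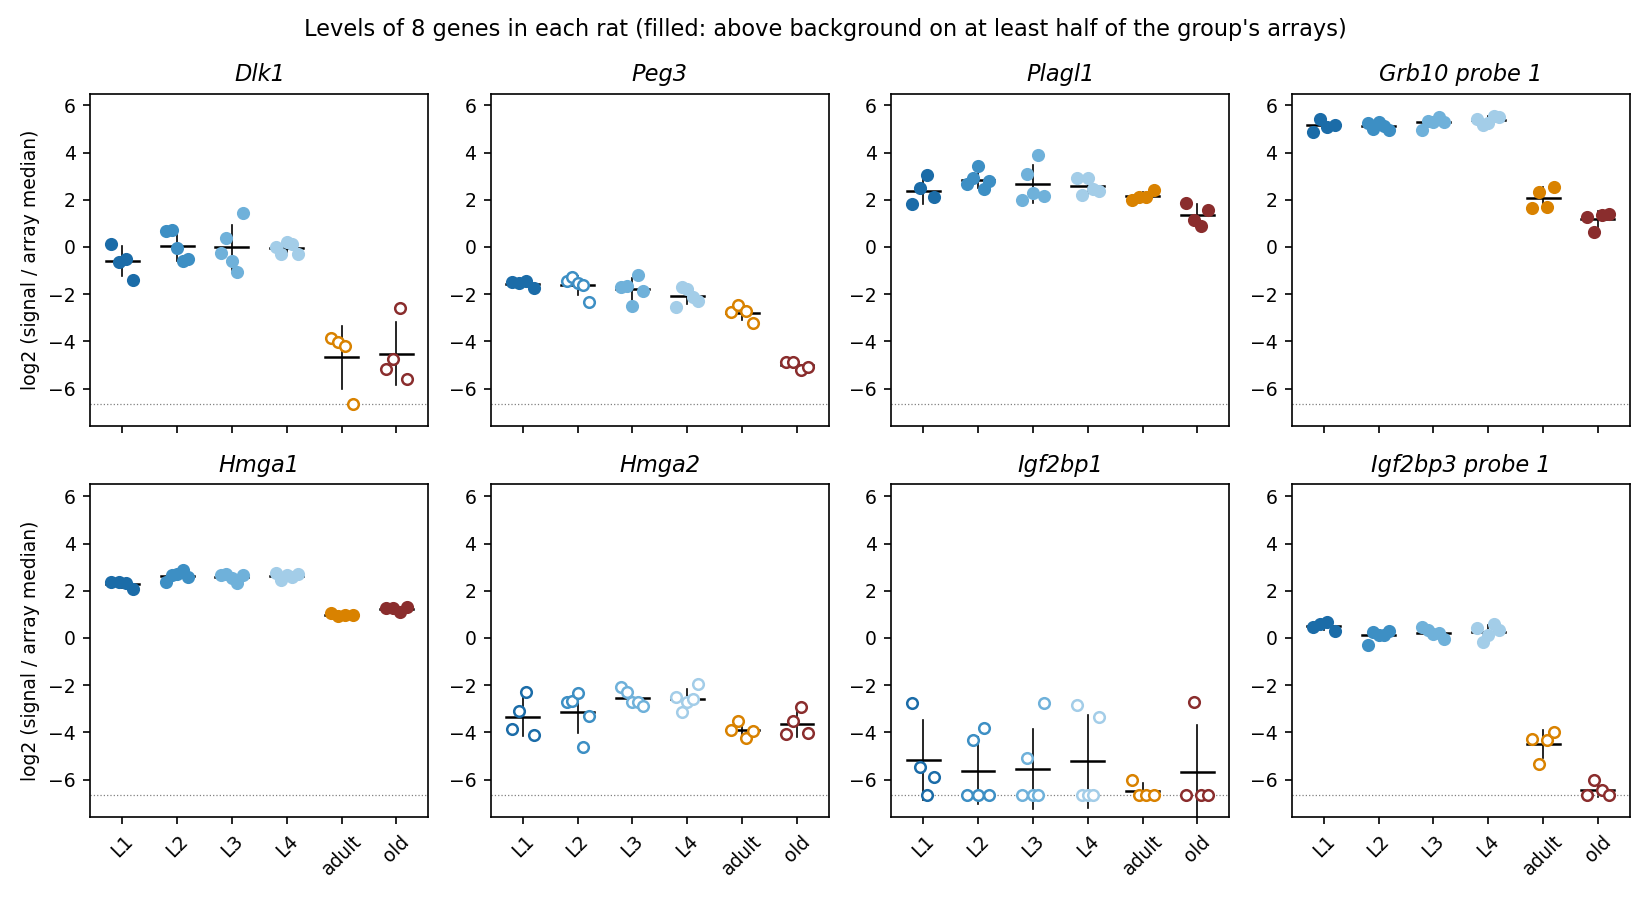
Level of each gene in each rat (log2 of signal over the array median, y axis) by group (x axis: litters L1 to L4, adult and old rats), with the group mean (bar) and SD (line). Filled points mark groups in which the probe was above background on at least as many arrays as not, and the dotted line marks the floor at -6.64. The 19 pups lie above all adult and old rats for Dlk1, Hmga1, Igf2bp3 and Grb10, and overlap with adult rats for Peg3 and Plagl1; heights are not comparable between genes.

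Dlk1 encodes a membrane protein related to the Notch ligands, known from preadipocytes, muscle and fetal liver. In L1 the level of Dlk1 was 0.14, -0.65, -0.51 and -1.40 in the 4 pups. In L2 it was 0.66, 0.74, -0.04, -0.61 and -0.51. In L3 it was -0.25, 0.36, -0.61, -1.04 and 1.44, the widest spread of the 4 litters. The 5 pups of L4 lay together, from -0.29 to 0.19. Adult rats gave -3.86, -4.01, -4.20 and -6.64, and old rats -5.15, -4.76, -2.58 and -5.57. Every pup was therefore above every adult and every old rat, and the adult and old rats overlapped. Dlk1 was above background on all 19 newborn arrays and on 0 of 8 adult and 0 of 8 old arrays. Because the older groups only have a bound, Dlk1 in newborn rats exceeded the adult level nominally at least 4.62-fold (adjusted p = 2.0e-08 in limma). The bound against old rats was 4.01-fold (adjusted p = 5.1e-08). These bounds set the newborn mean against the lowest signal of any probe that counted as well above background on each older array. Another probe can miss that flag at a higher signal. A bound is therefore nominal, here and below, and the true difference may be smaller. The adjusted p beside a bound, here and below, tests the fitted difference and not the bound. Adult and old rats did not differ by the test (log2 difference, adult minus old, -0.16 ± 0.62 SE, adjusted p = 0.880 in limma), and neither was measured above background. The methods' t-test on rats, adjusted in the same way, did not call Dlk1 (adjusted p = 0.0119 against adult and 0.0134 against old rats).

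Grb10 encodes an adaptor that binds the insulin and IGF1 receptors and restrains growth. Its first probe had levels from 4.89 to 5.55 in the 19 pups (median 5.27). In adult rats the same probe read 1.63, 2.34, 1.69 and 2.56, and in old rats 1.29, 0.64, 1.35 and 1.41. The 3 ages did not overlap, and the pups varied little among themselves (SD 0.20). Newborn rats were 9.05-fold higher than adult rats (log2 difference 3.18 ± 0.14 SE, adjusted p = 5.9e-15) and 16.7-fold higher than old rats (4.06 ± 0.14 SE, adjusted p = 1.4e-16), and this probe was above background on all 35 arrays. The second probe gave 8.29-fold and 19.2-fold. The third probe did not agree for adult rats, where the log2 difference of 0.72 ± 0.31 SE was not called (adjusted p = 0.0533 in limma). It read from -1.50 to 0.11 in pups and -5.83, -6.30, -6.64 and -4.42 in old rats. On none of the old arrays was it above background, and newborn rats were nominally at least 2.43-fold higher there (adjusted p = 4.3e-12 in limma). Between adult and old rats all 3 probes were called higher in adult rats. The first 2 differed by 1.84-fold and 2.31-fold (adjusted p = 3.9e-04 and 6.0e-04 in limma), the third nominally by at least 1.48-fold (adjusted p = 1.2e-08 in limma). The calls of the first 2 were lost when the fit held only these groups (adjusted p = 0.032 and 0.0372 in limma). The methods' t-test lost them too (adjusted p = 0.0625 and 0.0653). That of the second was also lost with normexp background correction and quantile normalization (adjusted p = 0.0217 in limma).

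Igf2bp3 encodes an RNA-binding protein of embryonic tissue named for binding Igf2 mRNA. In L1 its first probe read 0.45, 0.61, 0.69 and 0.30. The pups of L2 gave -0.28, 0.26, 0.14, 0.13 and 0.30, those of L3 0.46, 0.32, 0.15, 0.19 and -0.04, and those of L4 0.44, -0.15, 0.12, 0.60 and 0.35. The litters overlapped, and all 19 pups lay between -0.28 and 0.69 (SD 0.25). Adult rats gave -4.27, -5.34, -4.30 and -3.99, and old rats -6.64, -6.03, -6.45 and -6.64. Every pup was above every older rat. The probe was above background on 19 of 19 newborn arrays and on no adult or old array. Igf2bp3 in newborn rats was nominally at least 6.23 times its adult level (adjusted p = 3.0e-16 in limma). The bound against old rats was 5.42-fold (adjusted p = 1.4e-18). The second probe was above background on 16 of 19 newborn arrays and on 0 of 16 older ones, from -2.0 to -1.12 in pups, and gave bounds of 1.70-fold and 1.47-fold (adjusted p = 8.8e-11 and 8.8e-13). Its call against adult rats was lost with the methods' t-test (adjusted p = 0.0165).

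Igf2bp1, the close relative of Igf2bp3, was not measured above background in newborn or adult rats. Its signal was at the floor in 10 of 19 pups, 3 of 4 adult rats and 3 of 4 old rats, and the probe was above background on 1 of 35 arrays, that of an old rat. The log2 differences of 1.09 ± 0.86 SE against adult rats and 0.27 ± 0.86 SE against old rats were not called (adjusted p = 0.305 and 0.827 in limma). A difference under the detection limit of this probe could not have been seen, and none is given as a fold.

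Hmga1 encodes a DNA-bending chromatin protein made in dividing cells. Its level was 2.37, 2.35, 2.34 and 2.06 in L1, and over the 19 pups it ran from 2.06 to 2.89 with a median of 2.59. Adult rats gave 1.06, 0.94, 0.98 and 0.99, and old rats 1.29, 1.29, 1.09 and 1.31. The newborn group lay above both older groups with no overlap, and Hmga1 was above background on every array, so its folds are measured rather than bounded. Newborn rats were 2.91-fold higher than adult rats (log2 difference 1.54 ± 0.08 SE, adjusted p = 4.3e-14) and 2.45-fold higher than old rats (1.29 ± 0.08 SE, adjusted p = 1.7e-12). Old rats were above adult rats without overlap, but the log2 difference (adult minus old) of -0.25 ± 0.10 SE was not called (adjusted p = 0.0482 in limma).

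Hmga2, its relative in the embryo, was above background on 0 of 35 arrays. It read from -4.60 to -1.96 in pups (median -2.71), -3.90, -3.53, -4.23 and -3.96 in adult rats, and -4.08, -3.53, -2.94 and -4.03 in old rats. The pups overlapped with both older groups. The log2 difference against adult rats, 1.01 ± 0.33 SE, narrowly missed the threshold (adjusted p = 0.0104 in limma) and passed it when rat 9, 12, 24 or 32 was left out (adjusted p from 0.00122 to 0.00877), and against old rats it was 0.76 ± 0.33 SE (adjusted p = 0.0542). The difference against adult rats also passed with the methods' t-test (adjusted p = 0.00145). In limma it passed with the deposited ratio values (0.00908) and without a variance trend (0.00973). With both groups under background, these differences have no fold.

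**Figure D2:**
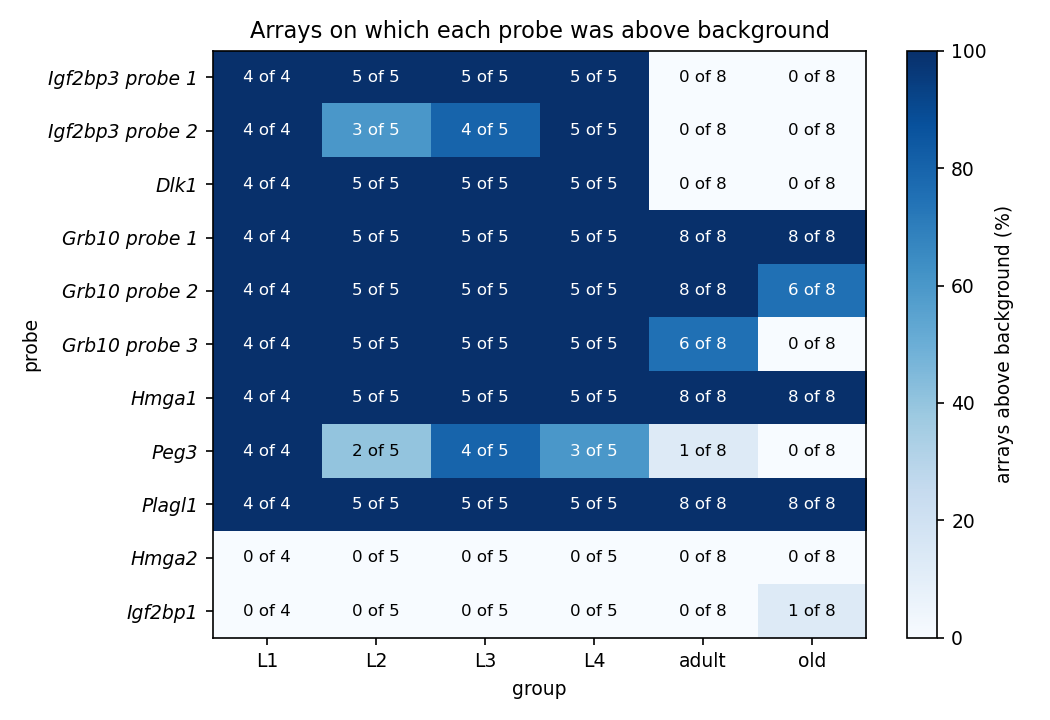
Number of arrays on which each probe (y axis) was above background in each group (x axis), coloured by the percent of the group's arrays. Igf2bp3 and Dlk1 go from most or all newborn arrays to 0 of 8 adult and 0 of 8 old arrays, Hmga1, Plagl1 and the first Grb10 probe are above background on every array, and Hmga2 is above background on none.

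Both Igf2bp3 probes and the Dlk1 probe were above background on at least 10 of the 19 newborn arrays and on no adult or old array, a pattern found for 0.461% of all probes (189 of 41012). Absence in older rats is not shown by this. Under the looser flag of a positive and significant signal alone, Dlk1 was seen on 4 of 8 adult and 5 of 8 old arrays, the first Igf2bp3 probe on 4 of 8 adult and 0 of 8 old arrays, and the second on 2 of 8 adult and 0 of 8 old arrays, so that 0 of these 3 probes kept the pattern. The weak signals of adult rats were also uneven between nostrils. The arrays of an adult rat differed by a median of 1.18 for Dlk1 and 1.81 for the first Igf2bp3 probe on the log2 scale, and by 0.19 for Hmga1. In old rats the medians were 2.57 for Dlk1, 0.19 for the first Igf2bp3 probe and 0.04 for Hmga1. That Igf2bp3 probe had no positive signal on 6 of 8 old arrays, which the floor makes alike.

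Plagl1 encodes a zinc finger transcription factor that slows division and that is known to act within a network of imprinted genes. It was above background on all 35 arrays. Pups read from 1.82 to 3.90 (median 2.49), adult rats 1.99, 2.11, 2.11 and 2.41, and old rats 1.87, 1.13, 0.89 and 1.58. The adult rats lay within the range of the pups, whose median was above the highest adult rat, and 1 old rat exceeded the lowest pup. The log2 difference against adult rats was 0.47 ± 0.26 SE and was not called (adjusted p = 0.137 in limma), while newborn rats were 2.38-fold higher than old rats (1.25 ± 0.26 SE, adjusted p = 2.5e-04). L3 held both the highest pup, at 3.90, and one of the lowest, at 2.0.

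Peg3 encodes a large zinc finger protein linked to fetal growth and maternal behaviour. Its probe is listed in the files under the gene name Apeg3, the antisense transcript of this locus, while its description names Peg3. The levels in L1 were -1.47, -1.53, -1.45 and -1.73, and those of all pups ran from -2.53 to -1.20 (median -1.70). Adult rats gave -2.77, -2.46, -2.72 and -3.21, and old rats -4.87, -4.88, -5.20 and -5.07. The adult rats thus lay at the lower edge of the pups, with a small overlap, and the old rats lay apart from both. Peg3 was above background on 13 of 19 newborn, 1 of 8 adult and 0 of 8 old arrays. Newborn rats were called higher than adult rats (log2 difference 1.03 ± 0.19 SE, adjusted p = 7.5e-05 in limma). No fold is given, since the adult signal was above background on 1 array. The call was lost with slide, scan day or rat as a random block (adjusted p = 0.0354, 0.0483 and 0.0421 in limma). Flooring before scaling, the order of the methods, lost it too (adjusted p = 0.0322 in limma). The bound against old rats was 1.32-fold (adjusted p = 1.6e-12). A second probe, on the opposite strand 299 bases away at chr1:65603781-65603840 and named Apeg3 in both fields, was not called between newborn and adult rats (1.20 ± 0.47 SE, adjusted p = 0.0329) and was called between newborn and old rats (adjusted p = 8.2e-05).

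**Figure D3:**
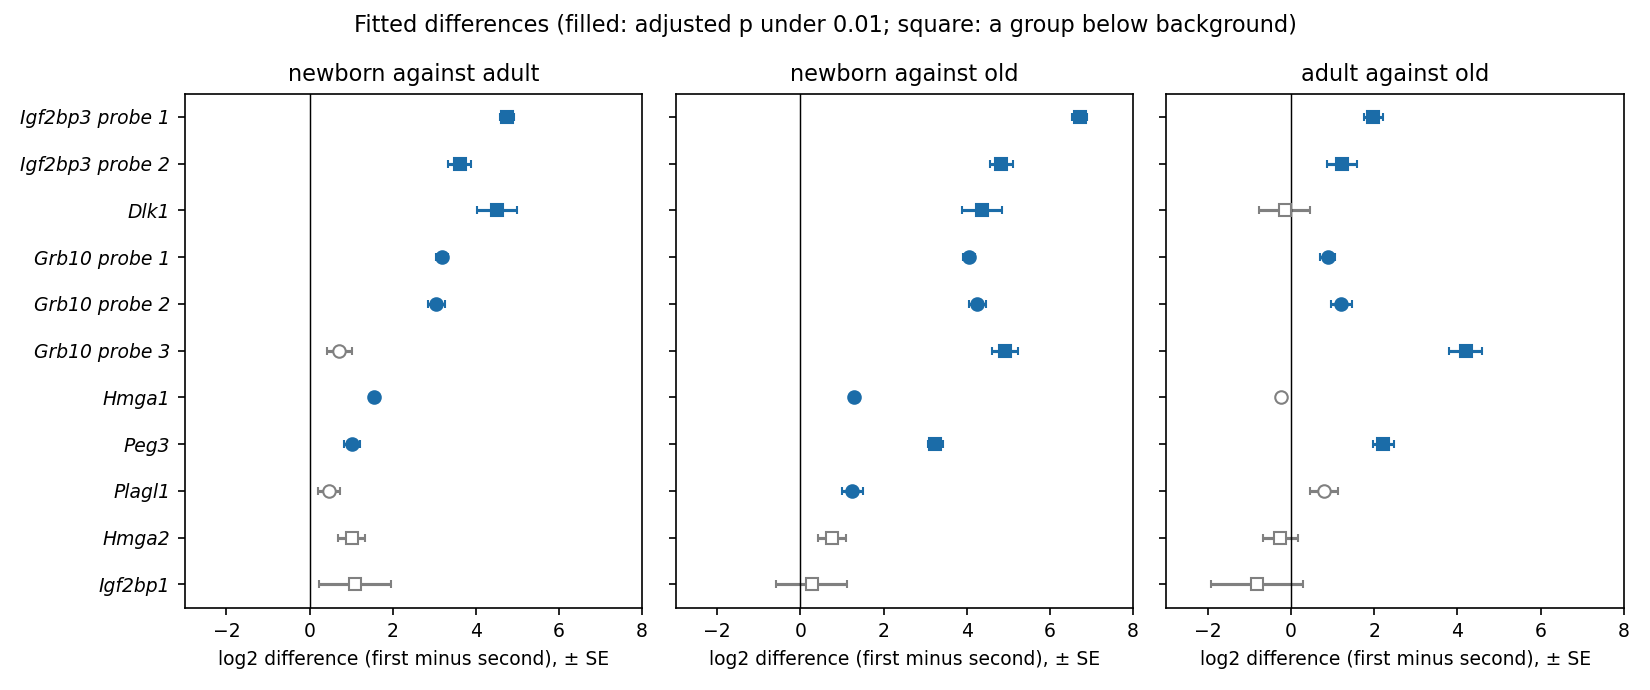
Fitted log2 difference of each probe (x axis, first group minus second, ± SE) in the 3 comparisons of age named above the panels. Filled marks passed an adjusted p of 0.01 and squares mark comparisons in which a group was below background on all its arrays, where the plotted size is no measured fold. The measured differences of Hmga1 (1.54 and 1.29) are smaller than those of the first Grb10 probe (3.18 and 4.06), and Igf2bp1 and Hmga2 are not called.

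Within the newborn rats, 0 of the 8 member probes differed among the 4 litters at an adjusted p under 0.01 in limma's F test, where 23.8% of all probes did, and 1 of the 8 had an unadjusted p under 0.05. This was Hmga1, whose litter means ran from 2.28 in L1 to 2.64 in L2 and L4 (adjusted p = 0.0109), against an SD of 0.16 within litters. Hmga1 passed the threshold when rat 21, 24, 29 or 32 was left out (adjusted p from 0.00282 to 0.00985). With arrays scaled to the 75th percentile it did not (adjusted p = 0.223 in limma), and the first Igf2bp3 probe passed instead (adjusted p = 0.00798). The litter means of Dlk1 ran from -0.60 to 0.05 with an SD within litters of 0.67, and those of the first Igf2bp3 probe from 0.11 to 0.51 with an SD of 0.23. L1 had a slide of its own and was scanned on another day than L2, L3 and L4, which lay mostly on separate slides. Litter therefore cannot be told apart from slide and, for L1, scan day. Without L1, 2612 of 41012 probes were called among litters, against 9743 with it.

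Every pup was above every adult rat for 4 of 8 probes (3 genes: Dlk1, Hmga1 and Igf2bp3), against 15.9% of all probes. Every pup was above every old rat for 5 of 8 probes, those of the same 3 genes and Peg3, against 10.3%. L1 and old rats were the only groups of different age scanned on 1 day. There, 5 of 8 probes were called higher in L1 (13.6% of all probes) and 4 at least 5-fold in the fit (3.17%), with old rats below background for all 4 and a bound over 5 for 1. On that day L1 was higher by nominal bounds of 2.94-fold for Dlk1, 6.37-fold for Igf2bp3 and 1.53-fold for Peg3 (adjusted p = 1.5e-05, 2.2e-16 and 1.0e-10 in limma). Hmga1 was 2.05-fold higher (log2 difference 1.04 ± 0.10 SE, adjusted p = 1.1e-08) and the first Grb10 probe 15.7-fold higher (3.97 ± 0.18 SE, adjusted p = 5.5e-14). Plagl1, at 1.0 ± 0.33 SE, was not called (adjusted p = 0.0177 in limma), but was called with scan day or rat as a random block (0.00159 and 0.00496).

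Between adult and old rats 3 of 8 probes were called, all higher in adult rats, against 11.8% of all probes. They were Peg3 (adjusted p = 1.5e-07) and both Igf2bp3 probes (adjusted p = 2.4e-07 and 0.00759). For Igf2bp3 neither group was above background, and for Peg3 the old rats were below it with adult rats above it on 1 of 8 arrays, so no fold is given. The call of Peg3 was lost with scaling to the 75th percentile (adjusted p = 0.0148), with normexp background correction (0.0557) and with a floor at 0.1 (0.0531), and so were those of both Igf2bp3 probes. That of the second Igf2bp3 probe was also lost without adult rat 15 or 16 or old rat 17, 19 or 20 (adjusted p from 0.0218 to 0.0443). Slide, scan day or rat as a random block (adjusted p = 0.0209, 0.0397 and 0.0229 in limma) lost it too, as did a fit of only these groups (0.109). The methods' t-test called neither Igf2bp3 probe (0.0136 and 0.195). Over all probes the median adult minus old difference was -0.13, which the 75th percentile scaling moves to 0.00.

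Other imprinted genes were read from 2 lists, chosen with earlier results of these data known. Parental classes were taken from general knowledge. Genes listed as expressed from the paternal copy, as Dlk1, Peg3 and Plagl1 are, were kept apart from those of the maternal copy. The arrays do not tell parental copies apart, so expression by parent was not measured in this tissue. Of 15 paternal-list genes with a probe, 10 were called higher and 1 lower in newborn than in adult rats (median log2 difference 1.62). Against old rats 10 were called higher and 1 lower (1.29). Of these, 9 were called higher against both ages, Peg12 only against adult and Snurf only against old rats. Of 18 maternal-list genes, 10 were called higher and 5 lower against adult rats (0.58), and 7 higher and 6 lower against old rats (0.16). The first count became 5 higher and 6 lower with normexp correction and quantile normalization, and 5 higher and 5 lower with the methods' t-test. Of all probes, 19.9% were called lower in newborn than in adult rats and 22.8% lower than in old rats, beside the 27.0% and 20.6% called higher. The difference between the lists was not tested.

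Ndn, which encodes necdin, a protein of postmitotic neurons, was 18.1-fold higher in newborn than in adult rats (log2 difference 4.18 ± 0.25 SE, adjusted p = 1.2e-12). Dio3, the deiodinase that inactivates thyroid hormone and neighbours Dlk1 in the same imprinted cluster, was 15.3-fold higher (3.94 ± 0.70 SE, adjusted p = 3.5e-05) and was above background on 7 of 8 adult arrays and on 0 of 8 old arrays. Igf2, the fetal growth factor whose mRNA the Igf2bp proteins bind, was 11.4-fold higher (3.51 ± 0.09 SE, adjusted p = 2.2e-18), from 9.34 to 10.20 in pups and from 5.98 to 6.67 in adult rats. Nnat and Slc38a4, an amino acid transporter gene, were 7.16-fold and 5.52-fold higher. Usp29, next to Peg3, was called (adjusted p = 0.00431) but was above background on 8 of 19 newborn arrays and on no adult array, and its call was lost without adult rat 14, 15 or 16. The Usp29 call was also lost with scaling to the 75th percentile (adjusted p = 0.028 in limma), normexp correction (0.0298) and a floor at 0.1 (0.031). The methods' t-test did not call it (0.0104). Inpp5f was the gene of the paternal list called lower in newborn than in adult rats (adjusted p = 2.7e-05 in limma). It was above background on 7 of 8 adult arrays, where rats read from -1.90 to -1.34, and on 0 of 19 newborn arrays, so no size is given.

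In the maternal list Cdkn1c, an inhibitor of the cell cycle and of growth, was 10.6-fold higher in newborn than in adult rats (3.40 ± 0.07 SE, adjusted p = 5.7e-21 in limma). It read from 8.14 to 8.66 in pups and from 4.84 to 5.13 in adult rats, a narrow spread at both ages. Dcn, Nap1l4 and Phlda2 were 2.72-fold, 2.35-fold and 1.93-fold higher, and Slc22a18 was lower (-0.90 ± 0.13 SE, adjusted p = 3.7e-06). Zim1, a neighbour of Peg3, was called at 1.91 ± 0.61 SE (adjusted p = 0.00951) though above background on only 1 of 19 newborn and 1 of 8 adult arrays. The call was lost with slide, scan day or rat as a random block (adjusted p from 0.0262 to 0.0653), with litter means as replicates (0.0264), with the methods' t-test (0.157) and when any 1 of 18 of the 23 pups and adult rats was left out, and the difference turned to -0.27 with scaling to the 75th percentile or a floor at 0.1.

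**Figure D4:**
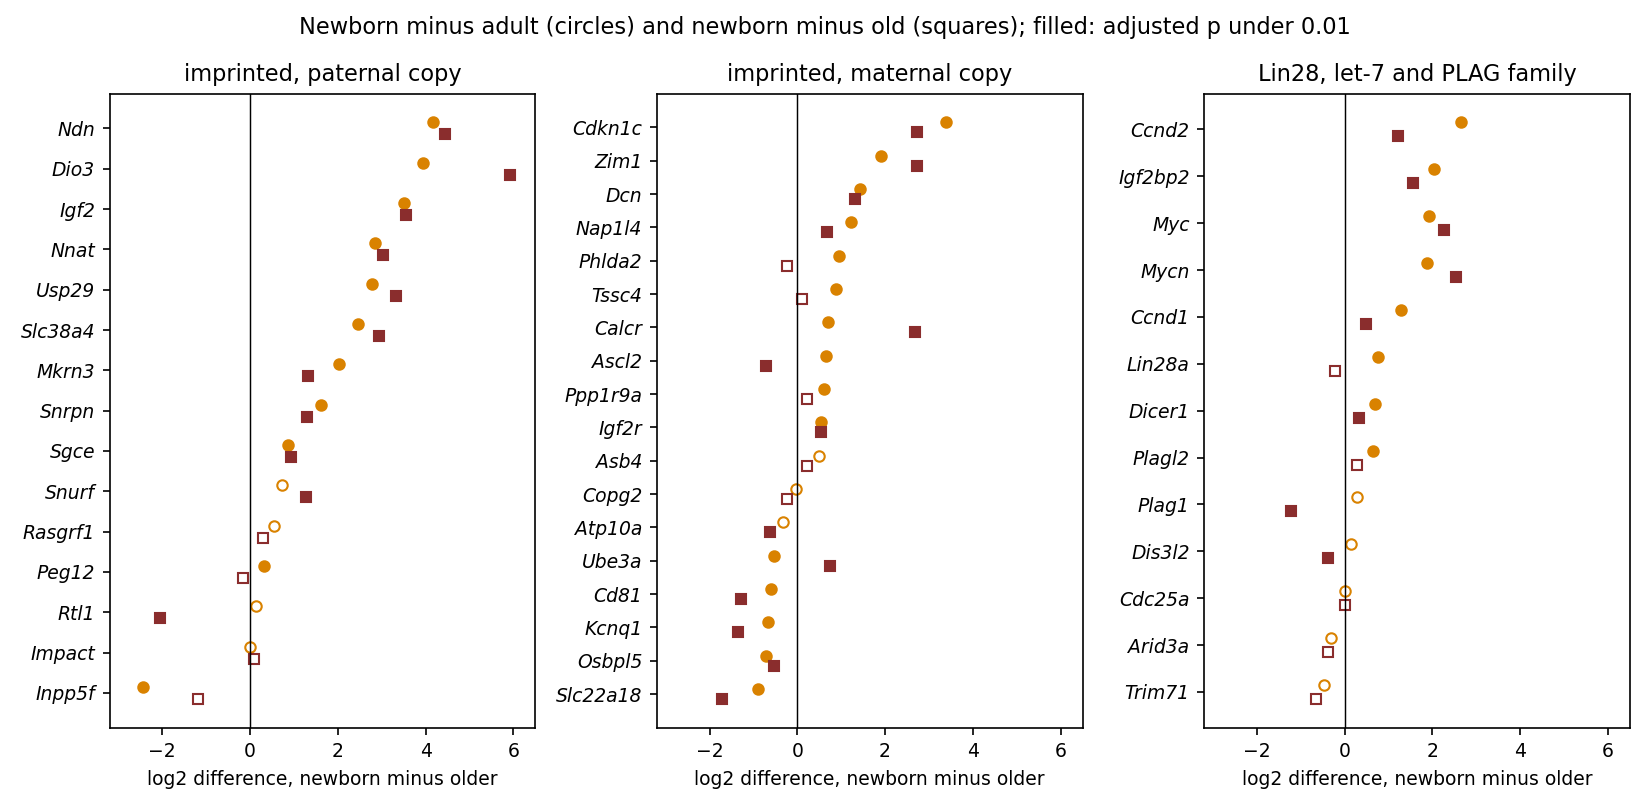
Fitted log2 difference (x axis) of each listed gene (y axis), newborn minus adult (circles) and newborn minus old (squares), filled at an adjusted p under 0.01, for imprinted genes expressed from the paternal copy, imprinted genes expressed from the maternal copy, and genes around Lin28, let-7 and the PLAG family. Of the 15 genes of the paternal list, 9 were called higher in newborn rats against both ages, and the maternal list has 10 of 18 called higher and 5 lower against adult rats, or 5 and 6 with normexp correction; Zim1, near background, turned sign with scaling to the 75th percentile or a floor at 0.1.

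Genes around Lin28, let-7 and the PLAG family of zinc finger factors, to which Plagl1 belongs, formed the third list. Of 13 with a probe, 8 were called higher in newborn than in adult rats and 5 were not called (median log2 difference 0.70), with 6 higher and 2 lower against old rats (0.29). Ccnd2, a cyclin of the first phase of the cell cycle, was 6.29-fold higher (2.65 ± 0.10 SE, adjusted p = 5.2e-16). Igf2bp2, the third member of the Igf2bp family and the one kept in adult tissue, was 4.14-fold higher (2.05 ± 0.11 SE, adjusted p = 1.9e-13) and stayed above background on all adult and old arrays, where Igf2bp3 was above background on none. Myc and Mycn were 3.80-fold and 3.72-fold higher, and Ccnd1 2.42-fold. Lin28a was called against adult rats (0.77 ± 0.24 SE, adjusted p = 0.00723), a call lost without rat 9, 11, 15 or 16, and not against old rats (-0.21 ± 0.24 SE, adjusted p = 0.502 in limma). The Lin28a call was also lost with scaling to the 75th percentile (adjusted p = 0.0401 in limma) and with only the groups compared in the fit (0.0119). Litter means as replicates (0.052) and the methods' t-test (0.115) lost it too.

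Marker genes of cell types also differed with age. The labelled tissue was checked by 5 marker genes of mature olfactory sensory neurons, Omp among them, each above background at every age. The summed level of these 5 genes, as a multiple of the array median, was 1036 to 2070 in pups. It was 3548 to 4434 in adult and 6704 to 8063 in old rats. A sum is set mostly by the brightest probe of its list, here Omp, with mean levels of 10.39, 11.53 and 12.58 in newborn, adult and old rats. All 5 genes were called lower in newborn than in adult and old rats. Between adult and old rats 2 were called (Omp and Cnga4, lower in adult rats) and 3 were not. The 8 genes of dividing cells were all called higher in newborn than in adult and old rats, with summed levels of 395 to 670, 101 to 134 and 74.3 to 89.2. The 6 skeletal muscle genes with a probe were all called higher in newborn than in adult rats and 5 of 6 higher than in old rats. Their sum ran from 43.6 to 688 in pups, from 13.2 to 28.0 in adult rats and from 50.8 to 79.0 in old rats. In adult and old rats this sum was mostly Tnnc2 (mean levels 4.16 and 5.97), which was not called between newborn and old rats. The other muscle genes had means from -4.98 to -1.40 in adult and from -5.02 to -1.12 in old rats. Myh8, the perinatal myosin, was above background on 19 of 19 newborn and 0 of 16 older arrays. Cartilage genes summed to 91.3 to 370 in pups and to 27.6 to 33.9 in older rats, and fibroblast genes to 3010 to 7400 in pups, 2139 to 3474 in adult and 363 to 720 in old rats. Against adult rats, 3 of 3 red cell, 4 of 5 globose basal and 4 of 5 immature neuron genes were called higher in newborn rats. Lower were 4 of 4 sustentacular and 2 of 5 bone genes, while 0 of 4 horizontal basal genes were called. Of 5 fat genes 1 was higher and 1 lower. All 5 reference genes were called higher too (median log2 difference 0.55, against 0.10 over all probes). The part of these cell types in the differences of the members was not tested.

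The members' levels were also set beside the cell type lists from pup to pup. After each litter's mean was removed, the level of Dlk1 over the 19 pups had a Pearson correlation of 0.88 with the mean level of the skeletal muscle genes, and the next highest list, that of horizontal basal cells, gave 0.39. Igf2bp3 gave 0.58 with dividing cells and -0.19 with muscle, and Hmga2, below background, 0.63 with bone and 0.62 with dividing cells. Plagl1 gave 0.67 with sustentacular cells, 0.61 with fibroblasts and 0.58 with both dividing and cartilage cells. Grb10 gave 0.71 with cartilage cells, 0.64 with dividing cells and 0.63 with fibroblasts, and Hmga1 gave 0.69 with the 5 reference genes. The highest value for Peg3 was 0.23, with cartilage cells. These are descriptions over pups spread over 6 slides, and 1 array sets both values of a pup.

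**Figure D5:**
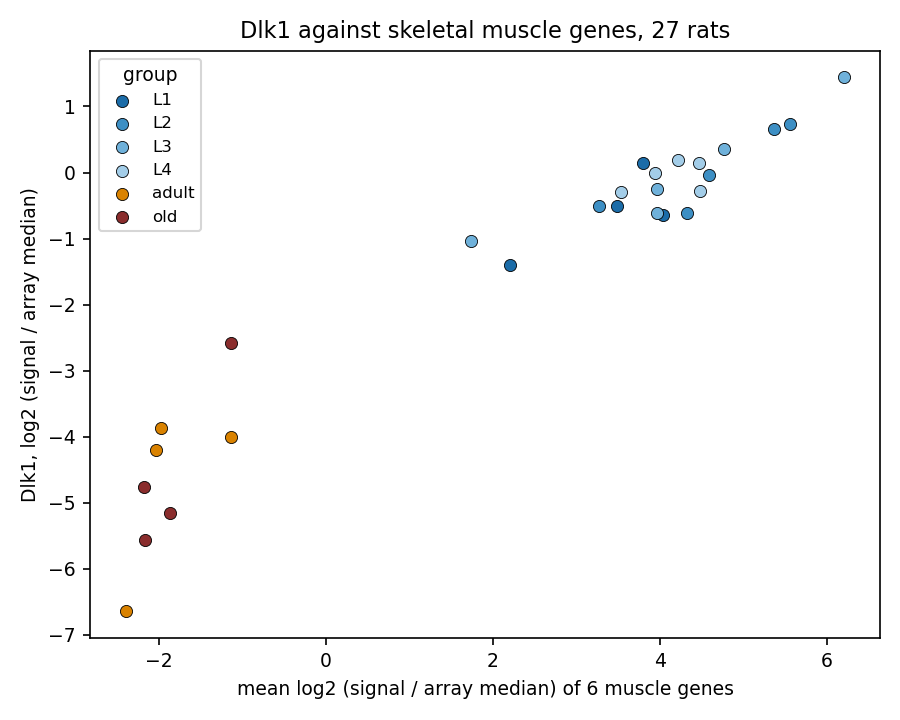
Level of Dlk1 (y axis, log2 of signal over the array median) against the mean level of 6 skeletal muscle genes (x axis, same scale) in the 27 rats, coloured by group. Pups with more muscle signal had more Dlk1, up to the L3 pup at 1.44, and the adult and old rats, in which Dlk1 was below background, lie apart at the lower left.

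Over all 27 rats the genes whose levels ran closest to a member's were picked among 28143 probes above background on at least 10 arrays, by Pearson correlation. For Dlk1 they were Myoz2, Acta1 and Ckm, all genes of striated muscle (0.96 each). For Igf2bp3 they were Cenpa, Ect2 and Bub1b, genes of mitosis (0.99 each), and for Peg3 the kinetochore genes Cenpi and Dsn1 (0.94 each), then Acan, of cartilage (0.93). Itm2a, Cdk1 and Mfap2 were closest to Grb10 (0.99 each), Bxdc1, Pttg1 and Eif4e2 to Hmga1 (0.98 each), and Scarf2 to Plagl1 (0.88). The difference between ages enters all of these values. Igf2bp1 and Hmga2, both near or below background, reached 0.59 and 0.76 at most.

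Pairs of members were then compared from pup to pup, without a test. Over the 19 pups, with litter means removed, the 28 pairs of member genes had correlations between -0.29 and 0.56. The highest, Hmga1 with Igf2bp1 (0.56), rests on a probe below background in all pups and at the floor in 10 of 19, and Plagl1 with Grb10 followed (Pearson 0.51, Spearman 0.49, and 0.48 without the 2 pups farthest from the median). Hmga1 with Igf2bp3 gave 0.50 (Spearman 0.30). Dlk1 and Igf2bp3, the genes above background in newborn rats alone, had -0.15. Some members varied little within litters (SD 0.16 for Hmga1), so low values here do not show that nothing is shared.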

How the data were processed

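Total RNA was labelled with Cy3 by the authors and hybridised to Agilent whole rat genome arrays. The deposited scanner files of Feature Extraction 9.5 (release 9.5.1.1 for adult arrays, 9.5.3.1 for the others) hold spot intensity, with local background subtracted and not normalized between arrays, in build rn3, and flags per spot. A matrix of ratio values was deposited as well, in which negative signals had become 0.01 and arrays and probes had been divided by their medians; it served as an alternative only.

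Of 45018 spots, control spots were left out and spots of a probe averaged, without 4189 values flagged as non-uniform or as population outliers, giving 41012 probes. Signals were divided by the array median, floored at 0.01 and put on the log2 scale, and the arrays of a rat were averaged. limma 3.58.1 in R 4.3.3 (lmFit, contrasts.fit, eBayes with a trend) was fitted to 6 groups over all probes, with Benjamini-Hochberg adjustment and newborn as the mean of the 4 litters; 494 probes with missing values were fitted on fewer rats. The fit was also run on simulated data, and the outcome of that run is not given here. The number of arrays limits the precision.

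The member genes, the other gene lists and the marker lists were chosen with earlier results of these data known. All member probes were reported; a gene with several was represented by the one with the highest mean level, and up to 6 called genes with the largest difference were named from each other list. Inpp5f and Myh8 were named after their values were seen. Alternatives covered scaling, background correction, floor, filters, blocks, the methods' t-test and leaving out each rat.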

Additional observations from a re-analysis of the deposited data

Results flagged for a closer look

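Of 48 sets of rats (8 genes in 6 groups), 7 held 1 rat far from the others of its group. Distance was judged by the gap to the nearest neighbour over the group's range, with a limit that chance passes in about 1 in 20 sets. That rate does not hold for levels held at the floor, so the 7 sets cannot be compared with it. In the Igf2bp1 sets below the other rats were tied at the floor, so any rat above it would be flagged. The Dlk1 value below was itself set by the floor. Adult rat 16 read -6.64 for Dlk1, at the floor, where the other adult rats read -4.20 to -3.86, all below background. For Hmga1, L1 rat 12 read 2.06 against 2.34 to 2.37 in its litter, and old rat 19 read 1.09 against 1.29 to 1.31; neither overlaps with another age. For Igf2bp1, adult rat 13 read -6.00 and old rat 18 read -2.72 where the others of their groups were at the floor of -6.64. L2 rat 21 read -0.28 for Igf2bp3 against 0.13 to 0.30 in its litter. Old rat 18 read 0.64 for Grb10 against 1.29 to 1.41. The causes were not tested.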

How the results depend on the processing

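Of the 8 member probes, 4 to 6 were called between newborn and adult rats and 5 or 6 between newborn and old rats under each alternative, except that restricting the test to probes expressed in all 6 groups left 2 of the 8, with 1 and 2 called, and 1 for L1 against old rats. Leaving out each rat gave 5 to 6, 6 to 6 and 5 to 5 calls. Adult against old rats went from 3 calls to 0 with the 75th percentile, normexp, a floor at 0.1 or that filter and to 1 with the methods' t-test, and leaving out each rat gave 2 to 3. Among litters the count went from 0 to 1 with the 75th percentile, and ran from 0 to 1 with a rat left out. Probes above background in newborn rats alone went from 3 to 0 with the looser flag. Rat numbers are unique to a rat, and no paired analysis was possible because the groups share no rats or numbers.

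No called member reversed. Among uncalled ones, Igf2bp1 between newborn and old rats turned to -0.21 (75th percentile), -0.01 (normexp), -0.20 (floor 0.1) and, with a rat left out, ran from -0.06 (without rat 17, 19 or 20) to 1.25. Between L1 and old rats it turned to -0.12, -0.15 (floor 0.1) and ran from -0.34 (without rat 9) to 1.46, and Hmga2 from -0.04 (without rat 11) to 0.56. Between adult and old rats Dlk1 turned to 1.07 (floor before scaling), 0.49 without rat 16 and 0.48 without rat 19, from -0.51 without another, Hmga2 turned to 0.06 (normexp), and Igf2bp1 ran from -1.15 to 0.16 (without rat 18). Zim1 turned to -0.27. The causes were not tested.

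Over all probes, adult against old rats gave 13268 calls and 7450 with the methods' t-test, L1 against old 13375 and 6627, and litters 9743 and, without L1, 2612. Calls higher in newborn than adult rats were 57.6%, and 47.5% with the 75th percentile and 46.9% with quantile normalization; those higher in adult than old rats were 36.5% and 51.6% with quantile normalization.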
